A study of Drosophila melanogaster with 34 samples.

Results

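Crooked legs (Crol) and Combgap (Cg) were compared peak by peak in brains and imaginal discs of 3rd instar Drosophila melanogaster larvae that were knocked out for crol (crol-KO). All peaks of both crol-KO lists on the arms 2L, 2R, 3L and 3R and on chromosomes X and 4 (dm3) were taken, which gave 9883 Crol peaks and 9299 Cg peaks. These are 19182 of the 47852 peaks that the 5 lists of the series hold on these arms. Peaks were paired when they shared at least 1 bp, with no condition on their strength. The Crol peaks came from chromatin precipitated with CrolN, an antibody raised against the N-terminal part of Crol, and the Cg peaks from an antibody against Cg. Each antibody was represented by 2 samples with pooled material from 10 larvae per sample, and the authors had joined their reads before calling peaks. The only allele named for these larvae was the crol knockout, which the study made with CRISPR/Cas9. The wild-type (WT) groups used for comparison were discs and brains of the same stage with the same antibodies, and S2 cells, an embryonic Drosophila cell line, gave a further Crol list.

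Crol and Cg are zinc finger proteins. Both have been tied to Polycomb response elements (PREs), the DNA elements in flies at which sequence-specific proteins bring Polycomb group complexes to chromatin so that genes stay silent. Crol has a long array of C2H2 zinc fingers and binds poly(G)-rich DNA, and Cg is one of the proteins known to help recruit Polycomb group complexes, although both also bind at many places outside Polycomb domains. The study found Crol protein reduced, not absent, in crol-KO larvae and proposed that Crol supplied by the mother remains. A Crol peak in these libraries is therefore not in itself at odds with the genotype label, and the lists do not measure how much Crol the larvae held.

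Each group gave 1 list, so no value below has a replicate check and no test between groups was possible. Shares carry exact 95% intervals (Clopper-Pearson) and medians with exact order-statistic 95% intervals. These cover counting error only, and they are too narrow as far as neighbouring peaks depend on each other. Strength is the authors' fold enrichment at the summit, which depends on depth and was used only to rank peaks within a list. The reads recovered from the peak values came to about 4.89 M for Crol and 3.57 M for Cg in crol-KO, so the Crol list rested on 1.37 times as many reads, and its median summit pileup was 74 reads against 59.

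Crol and Cg peaks in crol-KO were paired in large majority, and most of what remained unpaired was weak, with 1410 of the unpaired Crol and 780 of the unpaired Cg peaks in the weaker 5 of 10 parts of their lists. No Cg peak overlapped 1486 of the 9883 Crol peaks, 15.0% (14.3 to 15.8), and no Crol peak overlapped 851 of the 9299 Cg peaks, 9.15% (8.57 to 9.76). The unpaired share was lower for Cg, and the intervals were apart. With the Crol list limited to its strongest 9299 peaks, which was tried only once the data had been seen, the paired shares were 87.6% (86.9 to 88.2) of Crol and 88.3% (87.6 to 89.0) of Cg peaks, and the intervals overlapped. The part of the unequal depth in the difference was not tested further. In WT, 2454 of 10139 Crol peaks and 1154 of 8938 Cg peaks had no partner.

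The overlaps formed 8253 separate groups, and 7936 of them held a single peak of each protein. The other 317 groups, 3.84% (3.44 to 4.28), held several peaks of at least 1 protein. In 176 groups a single Crol peak covered several Cg peaks, in 127 groups a single Cg peak covered several Crol peaks, and 14 groups held several of both. The WT lists gave 203, 111 and 11 such groups among 7562, and the share outside 1-to-1 groups was 4.30% (3.85 to 4.78), with an interval that overlapped that of crol-KO. In both genotypes more groups had an undivided Crol peak than an undivided Cg peak. The Crol list also rested on more reads than the Cg list in both genotypes, and the part of depth was not tested.

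Splitting was seen at broad peaks, which follows in part from the selection, since a peak must span a gap to overlap 2 others. The 191 Crol peaks in crol-KO that overlapped more than 1 Cg peak had a median width of 1456 bp, against 577 bp for Crol peaks with a single Cg partner. The 143 Cg peaks that overlapped more than 1 Crol peak had a median width of 1372 bp, against 555 bp. The Cg peaks inside a Crol peak were separated by a median gap of 206 bp, with a range from 125 to 770 bp, and their summits by a median of 832 bp. For Crol peaks inside a Cg peak these medians were 188 bp and 792 bp, with gaps from 125 to 471 bp. Most of these peaks held 2 of the other protein, and no peak overlapped more than 3.

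Crol peaks with 3 Cg partners were found at 4 places. They spanned 2L from 19161054 to 19163927, 2R from 6693800 to 6695633, 2R from 15517247 to 15518993 and 3R from 13525714 to 13528262. Their fold enrichments of 5.78, 3.93, 8.10 and 2.58 ranked 1474, 4149, 369 and 8007 in the Crol list, so they were found at strong and at weak sites alike. The only Cg peak with 3 Crol partners, 3R from 10480583 to 10482932, had a fold enrichment of 5.86 and rank 1657 among Cg peaks. The largest group held 3 Crol and 3 Cg peaks in a chain of 4363 bp on X from 5779305 to 5783667. The strongest Crol peak of the chain, with a fold enrichment of 6.56, and its strongest Cg peak, with 7.93, were the middle ones, while the last peak of each protein was the weakest, with 3.55 and 3.51. No annotation of dm3 was used here, so these places are given without gene names.

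For measures of a matched site, each peak was paired with the peak it overlapped most, and the 8263 pairs in which this choice was mutual were kept. Crol and Cg summits in these pairs lay close together. The median distance was 36 bp (34 to 37), and 5212 pairs, 63.1% (62.0 to 64.1), had summits within 50 bp. The distance was at most 16 bp in the closest 25% of pairs and at most 71 bp in 75% of them, while reads had been extended to 300 bp. The Crol summit was to the right of the Cg summit in 4145 pairs, to the left in 4043 and at the same base in 75, so there was no preferred side: 50.6% (49.5 to 51.7) of the displaced Crol summits lay to the right. Each summit fell inside the peak of the other protein in 97.9% (97.6 to 98.2) of pairs. Arms gave similar medians, from 33 bp (30 to 35) on 3L to 38 bp (35 to 40) on X, with 39 bp (30 to 50) over the 90 pairs on 4.

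**Figure D1:**
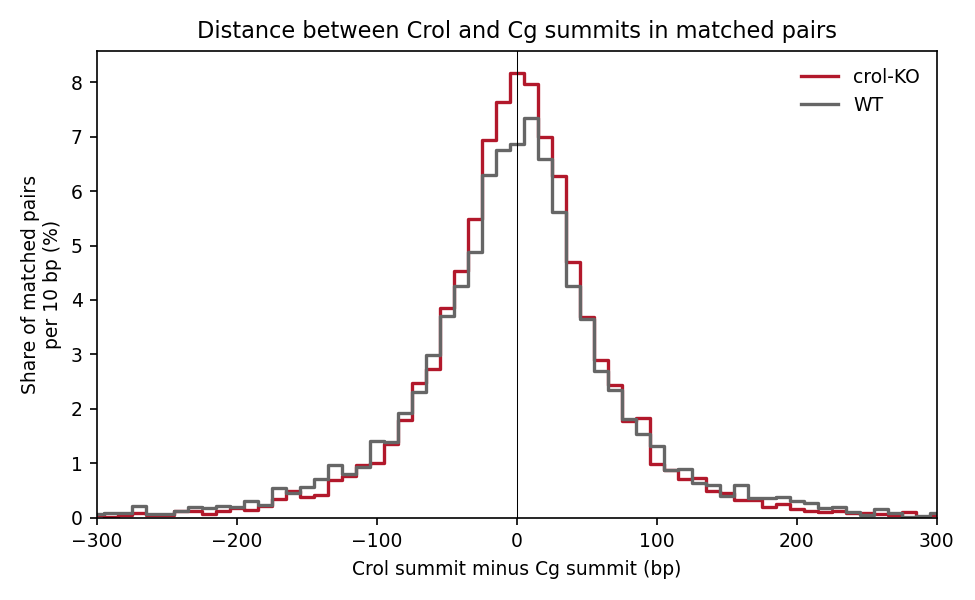
Position of the Crol summit relative to the Cg summit (x axis, bp) against the share of matched pairs in bins of 10 bp (y axis, %), for crol-KO (8263 pairs) and WT (7570 pairs). Both curves are centred near 0, with signed medians of 1 bp and 0 bp, and the crol-KO curve is the higher one around the centre, with 63.1% of pairs within 50 bp against 57.1%.

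In WT the median distance was 42 bp (41 to 43), and 57.1% (56.0 to 58.3) of 7570 pairs had summits within 50 bp. The median distance was thus smaller between the crol-KO lists than between the WT lists, and the counting intervals were apart. Without replicate lists, these intervals do not show whether the genotypes differ, and the difference cannot be assigned to the knockout. At 6535 loci where all 4 lists from discs and brains had mutually matched peaks, the medians were 34 bp (33 to 35) in crol-KO and 41 bp (39 to 42) in WT. At the same loci the Crol summits of both genotypes differed by a median of 37 bp (36 to 38), and the Cg summits of both genotypes by 35 bp (34 to 36). Within crol-KO the distance between the proteins was hence about as small as that between the crol-KO and WT lists of a single protein. Those lists differ in genotype, so they do not give the distance between replicate libraries. The crol-KO lists rested on more reads than the WT lists, 4.89 M against 4.24 M for Crol and 3.57 M against 3.42 M for Cg, and the part of depth in the distances was not tested.

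Distance fell with strength. When pairs were divided into 10 equal parts by the sum of their ranks in both lists, the median distance went from 56 bp (51 to 61) in the weakest part to 27 bp (24 to 28) in the strongest. The share of pairs with summits within 50 bp went from 46.4% (43.0 to 49.9) to 77.0% (74.0 to 79.8). In WT the medians went from 59 bp in the weakest part to 33 bp (30 to 36) in the strongest, without falling at every step, and the strongest part lay above that of crol-KO. Wide peaks had more distant summits: where the wider peak of a pair measured 1200 bp or more, 16.7% (14.5 to 19.2) of 999 pairs had summits over 300 bp apart, against 0.688% (0.482 to 0.951) of 5234 pairs in which it measured from 400 up to 800 bp.

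**Figure D2:**
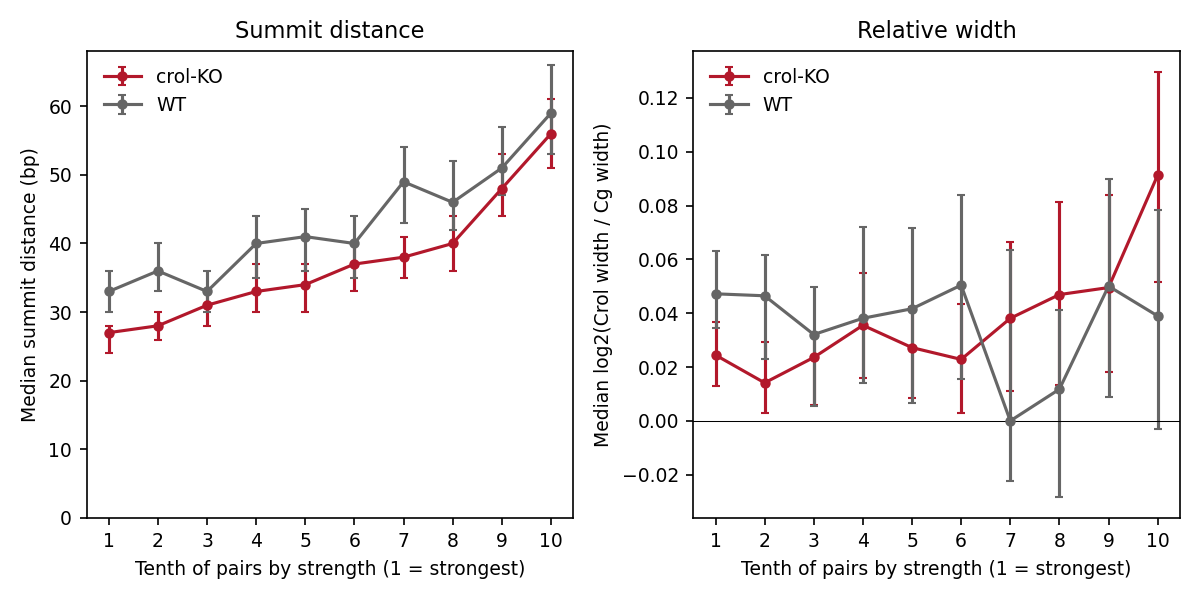
Median summit distance (left, bp) and median log2 of Crol width over Cg width (right) in 10 equal parts of the matched pairs, ordered by the sum of the ranks of fold enrichment (x axis, 1 is the strongest), for crol-KO and WT. Bars are 95% order-statistic intervals. In crol-KO the distance rose from 27 bp in the strongest part to 56 bp in the weakest, and the log2 width ratio stayed between 0.01 and 0.09.

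In 311 pairs, 3.76% (3.36 to 4.20), the summits were over 300 bp apart. Of these, 80 pairs, 25.7% (21.0 to 31.0), belonged to groups that were not 1-to-1, against 3.96% (3.55 to 4.40) of all pairs. The pair with the most distant summits, at 2546 bp, was on 3R, with a Crol peak from 10563606 to 10567636 and a Cg peak from 10563510 to 10565945. The Crol peak there ranked 328 with a fold enrichment of 8.31, the Cg peak ranked 5421 with 3.60, and a further Cg peak lay within the span. The Crol summit was to the right of the matched Cg peak and outside it. The rank of the further Cg peak was not looked up, and the part of the matching rule in this distance was not tested. The next pair, at 2213 bp, was on 3L, with Crol from 9374375 to 9377473 and Cg from 9374440 to 9377464. Both peaks were strong there, with fold enrichments of 8.43 (rank 305) and 9.81 (rank 107), and nearly equal in width, so the proteins had their highest points near opposite ends of a shared region.

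Matched peaks had nearly the same width. The median width was 587 bp for Crol and 561 bp for Cg, and the median log2 of Crol width over Cg width was 0.03 (0.03 to 0.04), a ratio of 1.02. Crol was the wider peak in 4584 pairs, 55.5% (54.4 to 56.6), Cg in 3635, and 44 pairs were equal. Between the 5th and the 95th percentile the log2 ratio ran from -0.52 to 0.78, and Crol was over 2 times as wide in 195 pairs and Cg in 101. The Crol peak contained the whole Cg peak in 31.1% (30.1 to 32.1) of pairs, and the Cg peak contained the Crol peak in 22.9% (22.0 to 23.8). The small excess of Crol went with the deeper Crol library, whose part was not tested. The WT median was 0.04 (0.03 to 0.05), where the Crol list also rested on more reads.

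The most unequal pairs in either direction were on 3L and 3R. On 3L a Crol peak of 1141 bp, from 73166 to 74306, was 3.80 times as wide as its Cg partner of 300 bp, with fold enrichments of 2.83 and 2.23. On 3R a Cg peak of 1411 bp, from 18236571 to 18237981, faced a Crol peak of 465 bp, with fold enrichments of 4.13 for Cg, at rank 4168, and 2.99 for Crol, at rank 6653. Width followed strength: the difference between the percentile ranks of Crol and Cg in a pair had a Spearman correlation of 0.44 with the log2 width ratio over the 8263 pairs, as a description, since width and fold enrichment come from the same pileup.

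Strong Crol sites were mostly strong Cg sites. Over the 8263 pairs the Spearman correlation between the fold enrichments of Crol and Cg was 0.75. This is a description across peaks at the same places, with nearly the same local background in both lists, and no p-value is given. With the pileup at the summit, which is not divided by the background, the correlation was 0.83. The strongest site was the same for both proteins, on X, with a Crol peak from 10234005 to 10234542 and a Cg peak from 10234008 to 10234548, fold enrichments of 19.1 and 21.7, and summits 1 bp apart. Of the 100 strongest peaks of each list, 37 were pairs in both (37%, 27.6 to 47.2), and of the 1000 strongest 571 were (57.1%, 54.0 to 60.2). In WT these numbers were 21 (13.5 to 30.3%) and 419 (38.8 to 45.0%), and the correlation over 7570 pairs was 0.52.

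**Figure D3:**
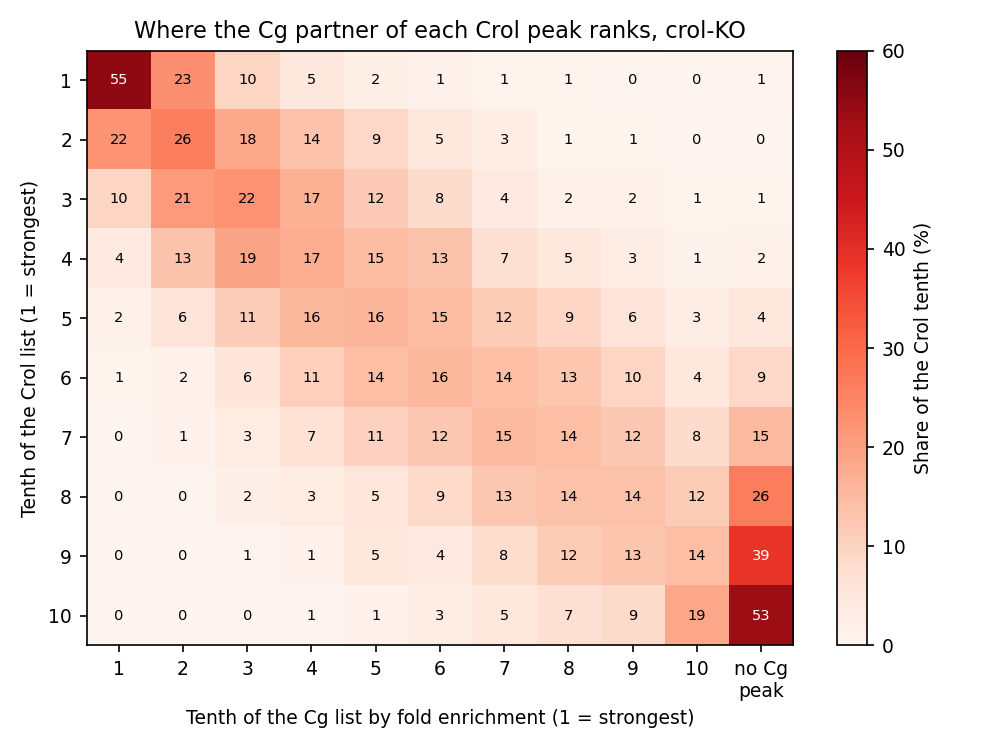
Crol peaks of crol-KO in 10 equal parts by fold enrichment (rows, 1 is the strongest) and the part of the Cg list in which their partner ranked (columns), with Crol peaks that had no Cg peak in the last column. Cells give the share of the row in %, and a few peaks whose match was not mutual are left out. Among partners the largest shares lie on or beside the diagonal, and in the middle rows they spread over many columns. The share without a Cg peak, in the last column, reaches 53.4% in the weakest part.

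Partners were most often in the same part at both ends of the lists. At an end a partner can differ in a single direction only, so these shares do not show where ranks agreed best. Of the Crol peaks in the strongest part of 10 that had a mutual partner, 55.7% had it in the strongest part of the Cg list and 79.2% within the first 2 parts. In the fifth part 16.6% had a partner in the same part, and in the weakest part 42.6%. Counting a neighbouring part as well, these shares were 48.3% and 62.3%. Over all pairs, 25.5% lay in the same part and 59.1% in the same or a neighbouring part. The percentile ranks of both proteins differed by a median of 12.04 points, and by over 25 points in 1685 pairs, 20.4%, with Crol the higher in 854 of them and Cg in 831. In WT the median difference was 17.7 points, and 35.9% of pairs differed by over 25 points.

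Single sites could still be ranked very differently. On 3R from 15394273 to 15395117 a Crol peak had rank 300 with a fold enrichment of 8.45, and its Cg partner rank 8495 with 2.44. On 3R from 25604144 to 25604806 Crol had rank 1176 with 6.17, and Cg rank 9083 with 2.15. The opposite was seen on 3L, where Cg from 1206637 to 1207150 had rank 471 with 7.81 and Crol rank 7812 with 2.64. On X Cg from 20380130 to 20382039 had rank 549 with 7.59 and Crol, in a peak of 717 bp, rank 8184 with 2.53. A further Crol peak overlapped this Cg peak, and the summits of the matched peaks were 606 bp apart. The rank of the further Crol peak was not looked up, and the part of the matching rule in this gap was not tested. The sites on 3R overlapped peaks in all 5 lists of the series, and the site on 3L a peak in every list but Crol in WT.

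Such inequalities were partly shared with WT, in libraries that the ranks in crol-KO had not used. Among the 6535 loci held by all 4 lists, Crol ranked at least 25 points above Cg in crol-KO at 720, and at 583 of these, 81.0% (77.9 to 83.8), Crol also ranked above Cg in WT. At the 718 loci where Cg ranked at least 25 points above Crol in crol-KO, Crol ranked above Cg in WT at 129, 18.0% (15.2 to 21.0). At the other 5097 loci this share was 45.5% (44.1 to 46.9). The difference in rank between Crol and Cg at a locus was hence in the same direction in both genotypes at most loci where it was large.

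At these same 6535 loci the ranking of Crol peaks in crol-KO was nearer to that of Cg in crol-KO than to that of Crol in WT. The Spearman correlation of the fold enrichments was 0.74 for Crol and Cg within crol-KO, 0.62 for Crol in both genotypes and 0.54 for Crol and Cg within WT. Cg in both genotypes gave 0.76. Crol in crol-KO and Cg in WT gave 0.60, close to the value for Crol in both genotypes, while Cg in crol-KO and Crol in WT gave the lowest value, 0.45. With summit pileups in place of fold enrichments, the correlation was 0.81 for the crol-KO pair, 0.76 for Crol in both genotypes, 0.87 for Cg in both genotypes and 0.71 for the WT pair, so the order was kept. The local backgrounds recovered from the peak values had a Spearman correlation of 0.94 between Crol and Cg within either genotype and between 0.80 and 0.81 across genotypes, and their part in the rank agreement was not tested.

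**Figure D4:**
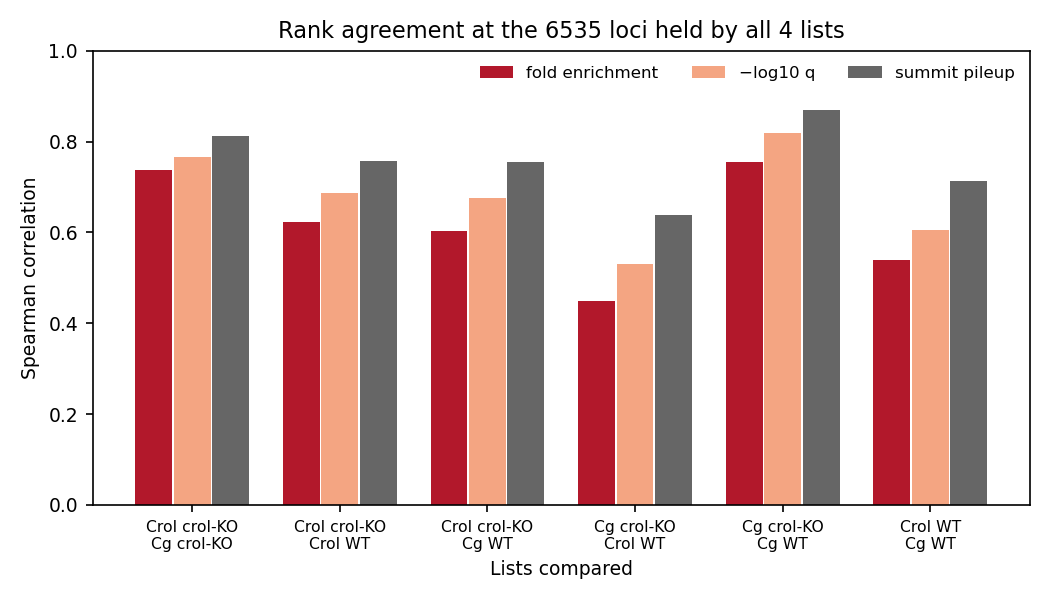
Spearman correlation between the ranks of 2 lists (y axis) for all 6 combinations of the 4 lists from discs and brains, over the same 6535 loci, by fold enrichment, −log10 q and summit pileup. By fold enrichment the correlation was 0.74 for Crol and Cg in crol-KO, 0.62 for Crol in both genotypes, 0.76 for Cg in both genotypes and 0.54 for Crol and Cg in WT.

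Most unpaired peaks lay at the weak end of both lists. The 1486 Crol peaks without Cg had a median fold enrichment of 2.46, a median width of 388 bp and a median pileup of 44 reads, against 3.88, 584 bp and 81 reads for paired Crol peaks. The 851 Cg peaks without Crol had medians of 2.75, 365 bp and 37 reads, against 4.08, 559 bp and 63 reads. In the strongest of 10 parts of the Crol list 5 of 988 peaks were unpaired, 0.506% (0.165 to 1.18), and in the weakest 528 of 989, 53.4% (50.2 to 56.5). For Cg these shares were 1 of 929, 0.108% (0.00273 to 0.598), and 269 of 930, 28.9% (26.03 to 32.0). The shares of Crol and Cg were alike in the stronger parts and separated from the seventh part on, where 15.1% (12.9 to 17.4) of Crol and 9.78% (7.95 to 11.9) of Cg peaks were unpaired.

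Most unpaired peaks had no peak of the other protein within 1000 bp. Shares for random positions were not computed, so the distances do not show whether unpaired peaks lay nearer or farther than such positions. Of the Crol peaks without Cg, 368, 24.8% (22.6 to 27.04), had a Cg peak within 1000 bp, 792 had the nearest between 1000 bp and 10 kb, and 326, 21.9% (19.9 to 24.1), had none within 10 kb. For Cg without Crol these numbers were 212, 492 and 147, the last being 17.3% (14.8 to 19.98). The median distance to the nearest peak of the other protein was 3028 bp for Crol and 2868 bp for Cg.

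A few strong peaks stood alone. The strongest Crol peak with no Cg peak within 1000 bp spanned 2L from 13362877 to 13363446 at a fold enrichment of 10.7, rank 76 and a pileup of 211 reads over a background of 18.8. The nearest Cg peak was 2718 bp away. The next were on 3L from 11034239 to 11034812, with 9.03 and rank 217, and on 2L from 13341062 to 13341570, with 6.74 and rank 830, 21.3 kb from the first. All 3 overlapped a WT Crol peak and no WT Cg peak, and the one on 3L also overlapped a Crol peak in S2 cells. They were thus Crol sites without a called Cg peak in both genotypes.

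The strongest Cg peak with no Crol peak within 1000 bp, on 3L from 8322029 to 8322639, had a fold enrichment of 6.89 and rank 874. It was followed by peaks on 3R from 15980300 to 15980798, with 6.56 and rank 1085, and on X from 1417319 to 1417761, with 6.14 and rank 1385. The first overlapped both WT lists and the S2 list, so it lacked a Crol peak only in crol-KO among the lists compared. The second overlapped Cg in WT and Crol in S2 cells, and the last had no counterpart elsewhere. The nearest crol-KO Crol peaks were 9259, 49257 and 1434 bp away.

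**Figure D5:**
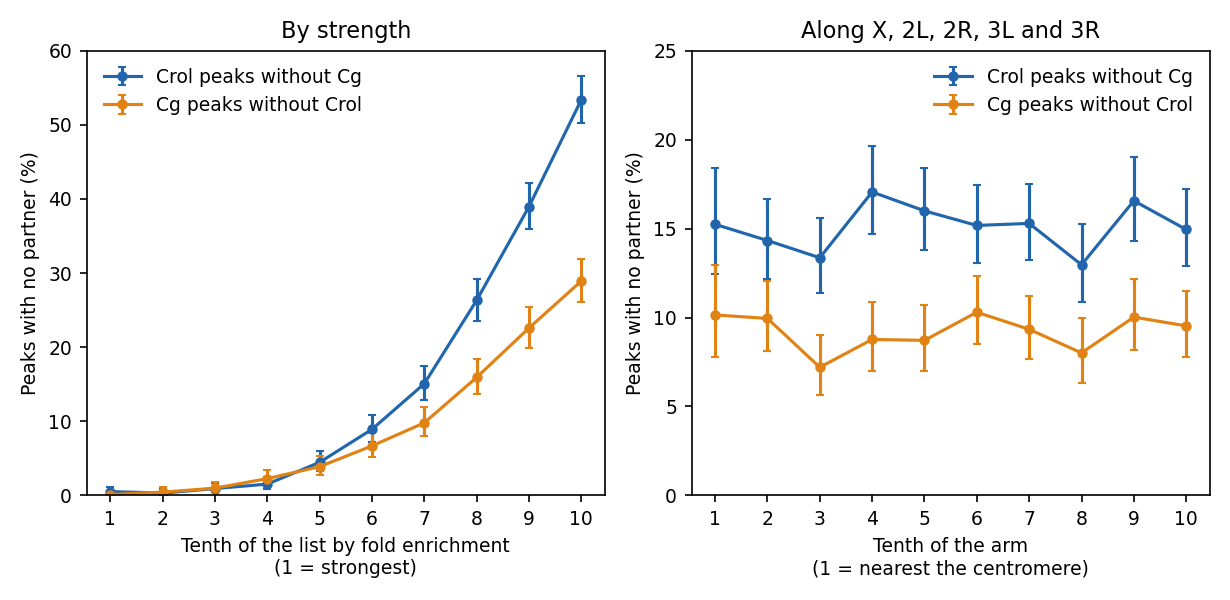
Share of crol-KO peaks with no partner (y axes, %) for Crol and Cg, with exact 95% intervals as bars, in 10 equal parts of each list by fold enrichment (left, 1 is the strongest) and in 10 equal parts of the arms X, 2L, 2R, 3L and 3R by position (right, 1 is nearest the centromere). By strength the shares rise to 53.4% for Crol and 28.9% for Cg, and along the arms they stay between 13.0% and 17.1% for Crol and between 7.20% and 10.3% for Cg.

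Paired and unpaired peaks were then looked up in the other lists, which played no part in the pairing. The pairing was set by a peak of the other protein in crol-KO, however. An overlap with that other protein in WT therefore repeats the choice in part. Of the Crol peaks without Cg in crol-KO, 51.7% (49.2 to 54.3) overlapped a Crol peak and 26.99% (24.7 to 29.3) a Cg peak in WT, against 87.7% (87.0 to 88.4) and 88.3% (87.6 to 89.0) of paired Crol peaks. In S2 cells 27.5% (25.2 to 29.8) overlapped a Crol peak, against 69.0% (68.0 to 70.0) of the paired ones. Neither WT list nor the S2 list had a peak at 485 of them, 32.6% (30.3 to 35.1), and 449, 30.2% (27.9 to 32.6), overlapped Crol but not Cg in WT.

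Of the Cg peaks without Crol in crol-KO, 45.2% (41.9 to 48.7) overlapped a Cg peak and 29.4% (26.3 to 32.6) a Crol peak in WT, against 88.3% (87.6 to 89.0) and 87.8% (87.1 to 88.5) of paired Cg peaks. In S2 cells 46.7% (43.3 to 50.1) of them overlapped a Crol peak, against 68.7% (67.7 to 69.7) of paired Cg peaks. The share of unpaired Cg peaks lay above the 27.5% of Crol peaks without Cg, with intervals apart, although the comparison in S2 cells is with Crol itself. Neither WT list nor the S2 list had a peak at 224 of them, 26.3% (23.4 to 29.4), and 139, 16.3% (13.9 to 19.0), were found only in the S2 list, against 151 of the Crol peaks without Cg, 10.2% (8.67 to 11.8).

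Paired and unpaired peaks of similar strength were also set side by side, within the interquartile range of the fold enrichments of the unpaired peaks. Widths were not matched. Over all peaks the unpaired ones had median widths of 388 bp against 584 bp for Crol and 365 bp against 559 bp for Cg. The part of width in the overlaps was not tested. For Crol, with fold enrichments between 2.201 and 2.82, 53.7% of 1299 paired and 24.3% of 742 unpaired peaks overlapped an S2 Crol peak, a difference of 29.5 points (25.3 to 33.5). Against Crol in WT the difference for these Crol peaks was 17.7 points (13.3 to 22.1), and 35.9 points (33.3 to 38.6) over all Crol peaks. Against Cg in WT, the protein that set the pairing of Crol peaks, it was 43.4 points (39.2 to 47.4), and 61.3 points (58.9 to 63.6) over all. For Cg, with fold enrichments between 2.42 and 3.22, 47.7% of 1770 paired and 46.7% of 430 unpaired peaks overlapped an S2 Crol peak. The interval of the difference, 0.996 points, ran from -4.27 to 6.21. Within this range of fold enrichments the paired and unpaired Cg peaks could not be separated by their overlap with S2 Crol peaks at this number of peaks, while over all Cg peaks the difference was 22.1 points (18.6 to 25.5). The WT lists did separate them within the range, by 47.2 points (42.3 to 51.7) for Crol in WT and 27.1 points (21.9 to 32.2) for Cg in WT. Crol was the protein that set the pairing of Cg peaks. Shares were set side by side over peaks, without a replicate, so no p-value is given.

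Between arms, and between the part next to the centromere and the rest, the unpaired shares differed little. By arm, the share of Crol peaks without Cg was 16.7% (15.1 to 18.6) on X, 15.4% on 2L, 13.7% on 2R, 15.9% on 3L, 13.9% on 3R and 10.8% (5.51 to 18.5) on 4, where 11 of 102 peaks were unpaired, and these are read against the 15.0% over all arms. For Cg, read against 9.15%, it was 9.61% (8.23 to 11.1) on X, between 8.41% and 9.47% on the 4 large autosomal arms, and 7.92% (3.48 to 15.0) on 4. In the part of the arms next to the centromere, 15.2% (12.4 to 18.4) of 584 Crol and 10.1% (7.75 to 13.0) of 552 Cg peaks were unpaired. These shares differed from the rest of the arms by 0.170 points (-2.62 to 3.39) for Crol and 1.04 points (-1.29 to 3.90) for Cg, and both intervals include 0.

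Crol peaks on X lacked Cg more often than those on the large autosomal arms, by 2.05 points (0.213 to 4.00). The difference lay in the weaker 5 of 10 parts of the list, with 34.1% (30.9 to 37.5) unpaired on X and 27.4% (26.03 to 28.8) on the autosomal arms, a difference of 6.74 points (3.30 to 10.3). In the stronger 5 parts the shares were 1.95% and 1.46%. For Cg the difference over all peaks was 0.546 points (-0.941 to 2.19), and it was 3.18 points (0.234 to 6.39) in the weaker 5 parts. With peaks of −log10 q of at least 5 in both lists, the X difference of Crol was 0.885 points (-1.02 to 2.92), and with a partner allowed within 1000 bp it was 1.03 points (-0.564 to 2.76), so the interval no longer excluded 0.

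In 118 windows of 1 Mb with at least 20 peaks, the share of Crol peaks without Cg had a median of 14.7% and a range from 6.82% to 31.3%. The highest was on X from 18000001 to 19000000, where 21 of 67 Crol peaks were unpaired, 31.3% (20.6 to 43.8), and 9 of 53 Cg peaks, 17.0% (8.07 to 29.8). For Cg the highest window was on 3R from 23000001 to 24000000, with 9 of 46 peaks, 19.6% (9.36 to 33.9). The interval lay above the overall share in 5 windows and below it in 4 for Crol, and in 3 and 4 windows for Cg. These windows were not adjusted for their number.

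Unpaired peaks stood singly or in runs of neighbouring unpaired peaks of their own list. The numbers that a random order of peaks would give were not computed. The counts therefore do not show whether unpaired peaks cluster. Of the 1486 Crol peaks without Cg, 917 stood between paired Crol peaks, 390 formed 195 neighbouring couples, and 108 formed 36 runs of 3. The longest run held 8 Crol peaks, the first starting at 2881327 and the last ending at 2954879 of X, and 0 crol-KO Cg peaks lay in these 73553 bp. Their fold enrichments lay between 1.80 and 3.09, so all were weak. Of these 8 peaks, 7 overlapped a Crol peak and 5 a Cg peak in WT, and 2 a Crol peak in S2 cells. The Crol peaks of the run were therefore mostly WT sites, and most also had Cg in WT. For Cg, 673 of the 851 unpaired peaks stood between paired ones, and the longest runs held 4 peaks. The wider of them spanned 214104 bp on X from 21249352 to 21463455, with fold enrichments between 2.38 and 3.02, and 2 of its peaks overlapped a Crol peak in WT, 0 a Cg peak in WT and 0 an S2 peak.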

How the data were processed

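Reads were trimmed by the authors with Trim Galore 0.6.5, aligned to dm3 with Bowtie2 2.3.5, cleared of PCR duplicates with SAMtools 1.13 and pooled over replicates, and narrow peaks were called with MACS2 2.2.5 at a q-value of 0.05 with reads extended to 300 bp. The control used for calling is not given in the sources used here. The deposited lists hold positions and summit offsets, a score, the authors' fold enrichment (a ratio of pileup to background) and, for the summit, −log10 values of p and of q as MACS wrote them for the authors.

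Peaks were grouped by sample titles, which for S2 cells differ from the tissue label. Overlaps, mutual pairs (most shared bp, then nearest summit) and intervals were computed with Python 3.11.15, numpy 2.4.6, pandas 2.3.3 and scipy 1.17.1. The pileup and background at each summit, and from the lowest background the number of reads (for 300 bp reads and a 120 Mb genome), were solved from fold enrichment and p-value, which gave whole pileups for 100% of peaks to a relative tolerance of 0.0002. The functions were tested on simulated data. Differences between shares have Newcombe intervals. Spans of arms end at the last peak of any list. Named peaks were chosen by extremes: the top pair, the 3 strongest peaks per list that were over 1000 bp from the other list, the largest rank gaps, summit distances, width ratios, groups, runs and windows. Members, lists and rules were chosen with earlier results of these data known. Alternatives were a 50% overlap of both peaks, a −log10 q of at least 5, added heterochromatic sequences, a 1000 bp window, summits within 250 bp, 1-to-1 groups, matching by summit, other strength measures, and lists cut by strength. Peak numbers skipped in the lists, 335 for Crol and 350 for Cg, were not analysed here. Of the unpaired peaks, 62 of Crol and 26 of Cg lay beside such a number in the other list, and without them the unpaired shares were 14.5% and 8.90%. The other 24 samples were not analysed here.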

Additional observations from a re-analysis of the deposited data

Results flagged for a closer look

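Peaks on the heterochromatic and unplaced sequences of dm3 lay outside the comparison. The crol-KO lists held 46 Crol and 47 Cg peaks there. Both are above the 3 that an observed count of 0 allows, which is a fixed limit and not an expected count for such sequences. A partner was found for 43 of the Crol peaks, 93.5% (82.1 to 98.6), and for 43 of the Cg peaks, 91.5% (79.6 to 97.6). The median summit distance of the 43 pairs was 33 bp. The part of repeated sequence in these peaks was not tested.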

How the results depend on the processing

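Of 63 values recomputed under an alternative, 46 stayed within the 95% interval of the reported value, 17 moved outside it, and no value with an interval clear of 0 changed sign. The share of Crol peaks with Cg, 85.0%, became 79.9% with a 50% overlap of both peaks, 88.7% with a window of 1000 bp, 80.7% with summits within 250 bp, 98.5% in the stronger 5 of 10 parts of the list and 87.6% with the Crol list as long as the Cg list. The share of Cg peaks with Crol, 90.8%, became 84.9%, 93.1%, 85.8%, 98.5% and 88.3% under the same settings. The X difference of Crol became 4.04 points with summits within 250 bp. The share of pairs with summits within 50 bp became 65.0% at a −log10 q of at least 5. The rank correlation became 0.72 there, 0.78 with −log10 q as strength, 0.55 as Kendall's tau-b, 0.83 with recovered pileups and 0.74 with the Crol list as long as the Cg list. The settings with recovered pileups, the stronger parts and equal list length were chosen after the data were seen. No paired analysis was possible because the reads of replicates were pooled before peaks were called, and for the same reason no replicate could be left out. The Cg list rested on fewer reads than the Crol list, and in either list a peak that was not called can be below the threshold instead of absent.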

Other observations

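The following places were noticed after the values had been seen. On 3L, one of the longest runs of Cg peaks without Crol, 4 peaks from 3395321 to 3417447, lay 9.48 kb from a run of 5 Crol peaks without Cg, from 3426926 to 3452679. In the Cg run 2 peaks overlapped Crol and 2 Cg in WT, and 3 overlapped Crol in S2 cells. In the Crol run these numbers were 3, 0 and 2, and 1 crol-KO Cg peak lay within its span without overlapping a Crol peak. Fold enrichments were between 2.38 and 3.50 in the Cg run, all below the median of the Cg list, 3.93. In the Crol run they were between 2.06 and 3.75, and the highest was above the median of the Crol list, 3.59. A further run of 5 Crol peaks without Cg, on 3L from 17105771 to 17131797, had 4 peaks that overlapped Crol and 2 that overlapped Cg in WT, and 0 that overlapped Crol in S2 cells.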
